A study of Mus musculus with 8 samples.

Results

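Brown fat makes heat. Its mitochondria hold an uncoupling protein that lets protons back into the matrix without driving ATP synthesis, and its cells burn fatty acids when noradrenaline from sympathetic nerves reaches their beta-adrenergic receptors and raises cAMP. In mice, depots of brown fat lie between the shoulder blades and also in the chest, along the aorta and the vessels at the base of the heart, whereas white fat stores triglyceride and secretes hormones such as leptin.

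The mRNAs of 5 genes that mark brown fat and its heat production, Ucp1, Cidea, Elovl3, Dio2 and Otop1, were described here in mouse hearts. They were chosen by symbol from the 25929 genes of the deposited table, and all 5 were listed. They were chosen with earlier results of these data known. The hearts came from a study of pressure overload, which asked how n-3 polyunsaturated fatty acids made in the animal affect the loaded heart. Wild-type (WT) mice and littermates carrying fat-1, an n-3 fatty acid desaturase gene of Caenorhabditis elegans, underwent transverse aortic constriction (TAC, a narrowing of the aortic arch) or a sham operation at 3 months of age, and the TAC lasted 8 weeks. The WT strain is C57BL/6 in the labels and C57BL/6J in the paper. RNA was sequenced from 2 independent samples per genotype and operation, namely WT mice after either operation (WT-Sham and WT-TAC) and carriers of fat-1 likewise (Fat1-Sham and Fat1-TAC), which gave 8 libraries, named here by group and number as in WT-TAC1. Whether a sample was 1 heart or a pool, and the promoter that drives fat-1, are not given in the sources used here, and the p-values measure the spread between these samples only. The table lists mouse genes, so fat-1 mRNA itself was not analysed here.

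Each value is in FPKM, fragments scaled to transcript length and to the library's total, computed by the authors. The depth recovered from the values was 14163994 and 21218331 fragments for the WT-Sham pair, 19828559 and 17961120 for the WT-TAC pair, 17780695 and 19555675 for the Fat1-Sham pair, and 18683010 and 18147306 for the Fat1-TAC pair. A count of 0 allows up to 3 fragments, which for Fat1-TAC1 is 0.0982 FPKM for Ucp1, 0.107 for Elovl3 and 0.0559 for Otop1. Intervals and floors cover counting error only.

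The libraries differed in mRNAs of other tissues before any brown fat gene was considered. The labels name ventricular tissue and the methods name whole hearts. Cardiomyocyte markers were abundant in all libraries, with 8 genes summing to 25669 FPKM in WT-TAC1 and to between 47006 and 62321 FPKM in the other 7. The 5 atrial markers (most abundant Myl7, the atrial myosin light chain) summed to 1031 and 3801 FPKM in WT-Sham, 2456 and 2456 in WT-TAC, 1323 and 25.8 in Fat1-Sham, and 52.8 and 35.7 in Fat1-TAC. Atrial mRNA was therefore high in 5 libraries and low in Fat1-Sham2, Fat1-TAC1 and Fat1-TAC2. The 6 airway markers (most abundant Bpifa1) summed to 1425 and 3753 FPKM in WT-TAC, to 46.8 in Fat1-Sham1 and to between 0.189 and 0.865 in the other 5 libraries. WT-TAC1 alone carried thymocyte markers, at 1105 FPKM over 5 measured genes against 0.536 to 1.67 elsewhere, and it held 167 FPKM of fast skeletal muscle markers against 4.21 to 10.6 elsewhere. Alveolar markers summed to 92.5 FPKM for WT-TAC1 and 36.1 for Fat1-Sham1, and keratinocyte markers at 79.6 in WT-TAC1 and 22.0 in WT-TAC2.

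Ucp1 (ENSMUSG00000031710) encodes the uncoupling protein itself and lies at chr8:83290352-83298452 on the plus strand of GRCm38. Dio2 (ENSMUSG00000007682), the deiodinase that converts thyroxine to the active hormone triiodothyronine inside the cell, lies at chr12:90724552-90738438 on the minus strand. Elovl3 (ENSMUSG00000038754), an elongase of very long chain fatty acids, lies at chr19:46131897-46135694 on the plus strand. Otop1 (ENSMUSG00000051596), a proton channel of the otopetrin family, lies at chr5:38275972-38304217 on the plus strand. Cidea (ENSMUSG00000024526), a lipid droplet protein that promotes the fusion of droplets, lies on chromosome 18. All are protein-coding genes in GENCODE.

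Of the members, 3 share ground with a gene on the opposite strand, and the library kit is not stated to keep strand. Cidea overlaps B430212C06Rik over 500 bases, and that gene stood between 0.819 and 1.63 FPKM. Elovl3 overlaps Pitx3 over 10 bases (0 to 1.17 FPKM), and Dio2 overlaps the noncoding Gm26512 over 238 bases (0 to 0.488 FPKM). Reads of the overlapping stretches cannot be told apart.

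RefSeq's table of start sites for GRCm38.p6 had entries for 3 of the 5 members, and the 250 bases before the start are shown for Ucp1 and Dio2, the members whose windows held the motifs searched. They are printed because cAMP and thyroid hormone are the known inputs to both genes. Capitals mark TGACG, the core that cAMP-responsive factors bind, its full palindrome TGACGTCA, AGGTCA, the core motif of nuclear receptors, and TATAAA, all searched on both strands, and the palindrome contains TGACG on each strand.
Ucp1, chr8:83290098-83290347, plus strand: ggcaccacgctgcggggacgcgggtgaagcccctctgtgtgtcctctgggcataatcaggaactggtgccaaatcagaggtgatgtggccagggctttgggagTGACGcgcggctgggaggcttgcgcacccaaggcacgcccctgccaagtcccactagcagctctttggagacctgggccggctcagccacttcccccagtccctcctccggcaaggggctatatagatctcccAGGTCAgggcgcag
Dio2, chr12:90739039-90739288, minus strand: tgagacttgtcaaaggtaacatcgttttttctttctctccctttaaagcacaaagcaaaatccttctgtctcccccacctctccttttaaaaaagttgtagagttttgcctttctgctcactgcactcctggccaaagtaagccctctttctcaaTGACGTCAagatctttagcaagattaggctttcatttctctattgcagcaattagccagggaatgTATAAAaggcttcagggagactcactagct

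In the Ucp1 window, TGACG begins 147 bases and AGGTCA 14 bases before the start. In the Dio2 window, TGACGTCA begins 95 bases and TATAAA 30 bases before it. Over the 32851 RefSeq promoter windows of the same length, 17.8% held TGACG, 1.55% TGACGTCA, 14.0% AGGTCA and 12.4% TATAAA. The matches describe letters only. The RefSeq start of Dio2 lies 600 bases upstream of the 5′ end of the GENCODE gene given above, and that of Ucp1 4 bases upstream, so the distances hold for the RefSeq starts. The Otop1 window held none of the 4 motifs.

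Ucp1 separated the libraries more widely than any other member. It stood at 12.04 and 44.0 FPKM in WT-Sham, 39.4 and 102 in WT-TAC, 36.4 and 0.0313 in Fat1-Sham, and 0 and 0.943 in Fat1-TAC. These values rest on 279, 1528, 1277, 2991, 1060, 1, 0 and 28 fragments, so 5 libraries held Ucp1 at 12.04 FPKM or more and 3 fat-1 libraries held it under 1 FPKM. The split did not follow the design: the sham-operated Fat1-Sham1 lay with the WT libraries, and Fat1-Sham2 lay with Fat1-TAC. The mean was highest for WT-TAC at 70.6 ± 44.1, followed by WT-Sham at 28.0 ± 22.6, Fat1-Sham at 18.2 ± 25.7 and Fat1-TAC at 0.472 ± 0.667 (SD, n = 2). The libraries of WT-TAC overlapped those of WT-Sham, those of WT-Sham overlapped Fat1-Sham, and those of Fat1-Sham overlapped Fat1-TAC, so no neighbours in this order of means differed beyond their spread. Within WT-Sham the higher library lay above the lower by more than the counting intervals, 10.7 to 13.5 FPKM against 41.8 to 46.3.

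**Figure D1:**
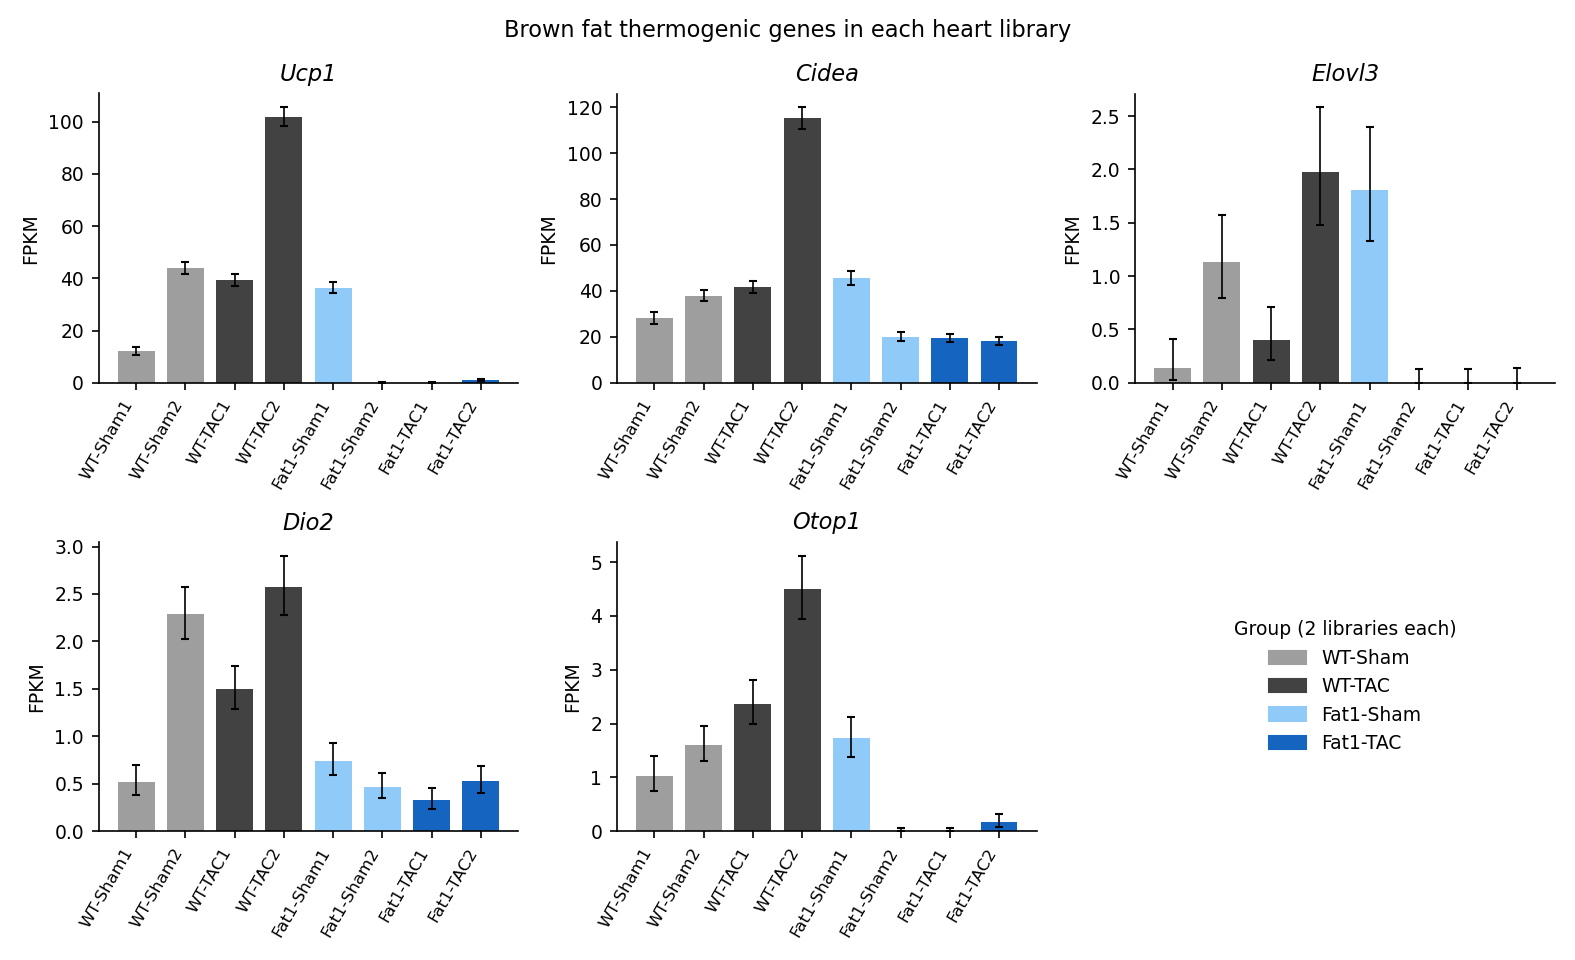
Level of each gene in FPKM (y axis, from 0) in each of the 8 libraries (x axis), with bars coloured by group and error bars giving the 95% Poisson counting interval. Ucp1, Elovl3 and Otop1 are at or near 0 in Fat1-Sham2, Fat1-TAC1 and Fat1-TAC2, whereas Cidea keeps 18.2 to 20.1 FPKM there.

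Elovl3 and Otop1 followed the same division of the libraries at low levels. Elovl3 stood at 0.142 and 1.14 FPKM in WT-Sham, 0.405 and 1.98 in WT-TAC and 1.81 in Fat1-Sham1, and no fragment was found in Fat1-Sham2, Fat1-TAC1 or Fat1-TAC2. In WT-Sham1 it rested on 3 fragments, which is the floor. Otop1 stood at 1.03 and 1.61 FPKM in WT-Sham, 2.37 and 4.50 in WT-TAC, 1.72 and 0 in Fat1-Sham, and 0 and 0.173 in Fat1-TAC. The last value came from 9 fragments, in the same library in which 28 fragments of Ucp1 were counted.

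Cidea and Dio2 behaved differently, because they were present in every library. Cidea stood at 28.0 and 37.9 FPKM in WT-Sham, 41.6 and 115 in WT-TAC, 45.6 and 20.1 in Fat1-Sham, and 19.4 and 18.2 in Fat1-TAC. The 3 libraries with little or no Ucp1 thus held Cidea at nearly equal levels, with 458, 421 and 384 fragments, and their counting intervals overlapped. The gene overlapping Cidea on the other strand was at most 1.63 FPKM. Dio2 stood at 0.522 and 2.29 FPKM in WT-Sham, 1.5 and 2.58 in WT-TAC, 0.745 and 0.466 in Fat1-Sham, and 0.331 and 0.531 in Fat1-TAC. Its level in WT-Sham1 (interval 0.378 to 0.703 FPKM) overlapped those of all 4 fat-1 libraries, although WT-Sham1 held 12.04 FPKM of Ucp1.

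All 5 members were highest in WT-TAC2. For Ucp1 the order below it was WT-Sham2, WT-TAC1, Fat1-Sham1 and WT-Sham1, and for Cidea it was Fat1-Sham1, WT-TAC1, WT-Sham2 and WT-Sham1. In the Ucp1 order, the intervals of WT-TAC1 (37.2 to 41.6 FPKM) and Fat1-Sham1 (34.3 to 38.7 FPKM) overlapped, and those of the other neighbours above 1 FPKM did not. For Cidea the intervals of Fat1-Sham1 and WT-TAC1 overlapped, as did those of WT-TAC1 and WT-Sham2.

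The comparison of Fat1-TAC with WT-TAC asks how fat-1 bears on the loaded heart, and all 5 members were lower in Fat1-TAC without any overlap of the libraries. Among all 14442 genes tested, 57.1% were lower without overlap in the same comparison and 78.0% had a value below 0, so the background was high. The log2 fold change on the log2(FPKM + 1) scale was -5.53 (SE 1.52, 95% interval -9.12 to -1.94) for Ucp1, -1.83 (SE 0.52) for Cidea and -1.99 (SE 0.48) for Otop1. Dio2 was at -1.07 (SE 0.39) and Elovl3 at -1.03 (SE 0.58), where the added 1 FPKM damps changes of such low genes. For Elovl3, the WT-TAC mean was at least 10.9-fold higher than the 3-fragment floor per library of Fat1-TAC, a bound carried by WT-TAC2, since WT-TAC1 alone gave at least 3.71-fold. The median of all genes was -0.40, and relative to it the members lay at -5.13 (Ucp1), -1.43 (Cidea), -1.59 (Otop1), -0.66 (Dio2) and -0.63 (Elovl3). The size depended on the scale. Fitted by limma-voom to recovered fragments, the values were -9.02 (Ucp1), -1.90 (Cidea), -6.34 (Otop1), -2.23 (Dio2) and -5.65 (Elovl3), and none was called. With quantile normalisation Otop1 was at -1.53, Dio2 at -0.58 and Elovl3 at -0.78.

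None of the 5 passed the threshold in this comparison, which was a Benjamini-Hochberg adjusted p under 0.1 by limma with a fold change over 1.5. The adjusted p was 0.152 for Ucp1, 0.155 for Cidea, 0.136 for Otop1, 0.163 for Dio2 and 0.228 for Elovl3, while 1.39% of all genes were called lower. At an unadjusted p under 0.05 in limma and a fold change over 1.5, 4 of the 5 (all but Elovl3) were lower, against 23.5% of all genes. Outside WT-TAC, Dio2 reached 1 FPKM only in WT-Sham2. It passed the filter only through WT-TAC, which favoured a lower value against it. An exact permutation test of 2 against 2 libraries cannot go below p = 0.33. Leaving out WT-TAC2 brought Ucp1 (-4.86, adjusted p = 0.0777), Cidea (-1.11, adjusted p = 0.0738) and Otop1 (-1.64, adjusted p = 0.0482) past the threshold in limma, as WT-TAC1 is then assumed to vary like the other groups, while Dio2 was at -0.81 and Elovl3 at -0.49, not called. Without WT-TAC2, however, 46.8% of all genes were called lower, so these 3 calls stand in a high background. Leaving out Fat1-Sham1 or Fat1-Sham2, which enter only the shared estimate of spread, gave Ucp1 an adjusted p of 0.0706 or 0.0686 in limma, with 0.533% of all genes called lower in each. Without WT-TAC1, the library with thymocyte and muscle markers, the values were -6.20 for Ucp1 (adjusted p = 0.231), -2.56 for Cidea (adjusted p = 0.0959, called), -2.34 for Otop1 (adjusted p = 0.176), -1.32 for Dio2 and -1.57 for Elovl3 in limma, with 1.29% of all genes called lower.

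Markers of several other tissues moved with this result. The 5 atrial markers were all lower in Fat1-TAC without overlap, with a median log2 fold change of -5.89, and Myl7 stood at 1035 and 1097 FPKM in WT-TAC against 18.3 and 12.7 in Fat1-TAC. None of the 5 atrial markers was called by limma. All 6 airway markers were lower, with a median of -5.10, and 5 of the 6 were called. The median was -3.54 for keratinocyte markers (3 passed the filter, 1 called lower), -2.65 for alveolar (3 passed) and -2.42 for fast skeletal muscle markers (3 passed). Only 1 thymocyte marker passed the filter, at -3.90. Outside WT-TAC, no airway, keratinocyte, alveolar or thymocyte marker reached 1 FPKM in 2 libraries, nor did Tnnt3 of fast skeletal muscle. They passed the filter only through WT-TAC, which favoured lower values and calls against it. All 4 fibroblast markers (median -0.81, Col3a1 called) and all 3 macrophage markers (median -0.63) were lower without overlap. All 5 erythroid markers were also below 0, with a median of -0.55. The endothelial markers went both ways, with 2 above 0 and 1 below (Pecam1, lower without overlap), and had a median of 0.49. The part of all these markers in the lower brown fat mRNA was not tested. In bulk tissue, fewer brown fat cells and less mRNA per cell cannot be told apart.

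**Figure D2:**
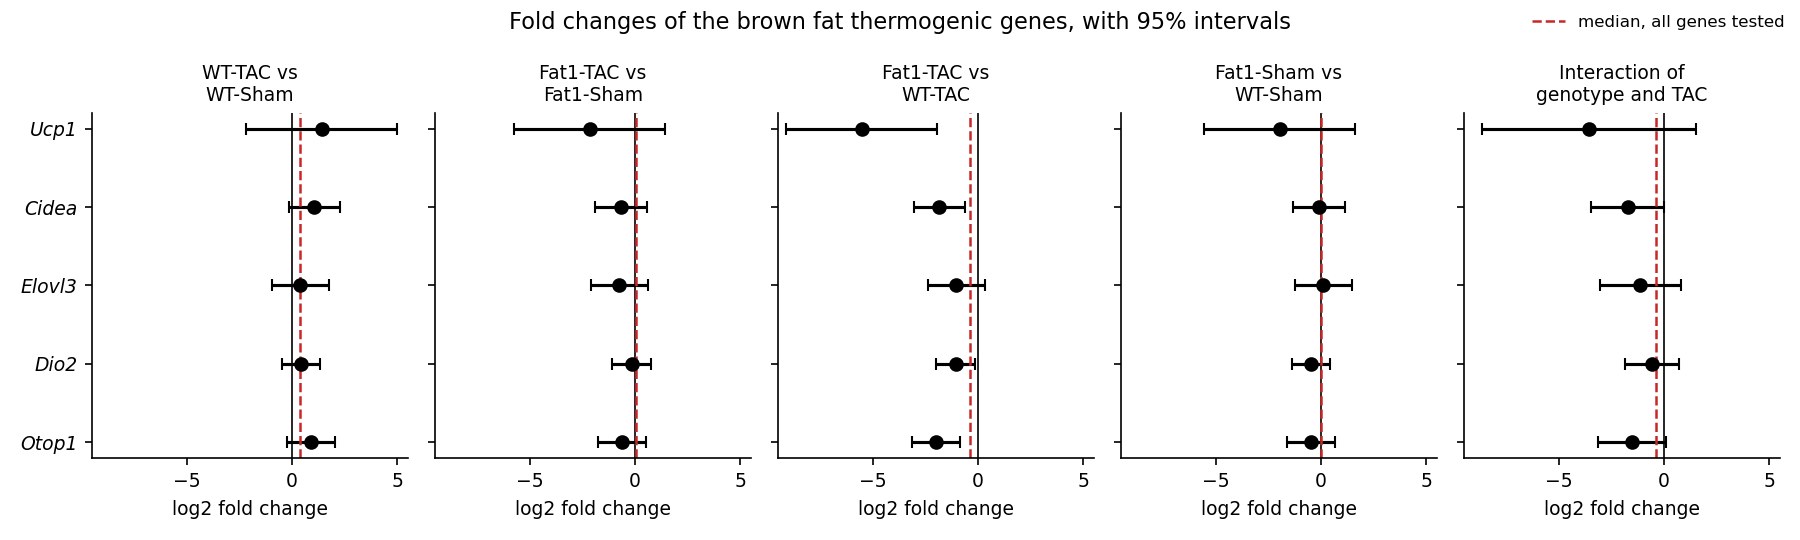
Log2 fold change of each gene on the log2(FPKM + 1) scale (x axis) in the 4 comparisons and the interaction of genotype and TAC, with the 95% interval of limma from 2 libraries per group. The dashed line is the median of all 14442 genes tested, and the interval of Ucp1 excludes 0 only for Fat1-TAC against WT-TAC.

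TAC in WT mice is the comparison that asks for the effect of pressure overload alone. Mean log values of all 5 members were higher after TAC, and 2 of the 5, Cidea and Otop1, did so without overlap, against 52.5% of all genes, and 79.3% of all genes had a value above 0. The log2 fold change was 1.41 (SE 1.52) for Ucp1, 1.07 (SE 0.52) for Cidea, 0.90 (SE 0.48) for Otop1, 0.42 (SE 0.39) for Dio2 and 0.39 (SE 0.58) for Elovl3. Ucp1 was at 0.52 without WT-Sham1 and 2.30 without WT-Sham2, and Cidea at 0.34 without WT-TAC2 and 1.79 without WT-TAC1. Otop1 was at 0.32 with quantile normalisation and 1.31 with limma-voom. The adjusted p by limma lay between 0.200 (Cidea) and 0.634 (Elovl3), so none was called, while 0.921% of all genes were called higher. The median of all genes was 0.39, and Dio2 and Elovl3 lay within 0.03 of it. Dio2 passed the filter only through WT-TAC, which favoured a higher value there. Ucp1 could not be separated between these groups, since its interval ran from -2.18 to 4.997. Without WT-Sham1, Dio2 turned to -0.14 and Elovl3 to -0.06, without WT-TAC2 Elovl3 was at -0.15, and with quantile normalisation Dio2 was at -0.10. Of the 6 airway markers, 5 were called higher in WT-TAC, with a median of 5.11 over the 6. All 6 passed the filter only through WT-TAC, which favoured higher values there. The atrial markers had a median of 0.41 with none called. The part of both sets of markers in the values of the members was not tested.

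TAC in fat-1 mice gave lower means for all 5 members, against 45.3% of all genes below 0, and the values were smaller or reversed without Fat1-Sham1. The log2 fold changes of Fat1-TAC against Fat1-Sham ran from -0.16 (Dio2) to -2.16 (Ucp1, SE 1.52), all with an adjusted p of 1.0 by limma. Only Cidea was lower without overlap, against 21.5% of all genes, and 0.00692% of all genes were called in either direction. Without Fat1-Sham1 the values became 0.43 for Ucp1, 0.11 for Otop1, -0.10 for Cidea and -0.04 for Dio2, and Elovl3 was at 0 in every library left. All 5 atrial markers were below 0 in the same comparison, with a median of -2.30 and none called, and their part was not tested.

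Between the sham-operated groups the members did not differ beyond the spread of the libraries. The log2 fold change of Fat1-Sham against WT-Sham was -1.96 (SE 1.52) for Ucp1, -0.10 (SE 0.52) for Cidea, 0.10 (SE 0.58) for Elovl3 (-0.32 with a pseudocount of 0.1), -0.48 (SE 0.39) for Dio2 and -0.48 (SE 0.48) for Otop1, each with an adjusted p of 1.0 by limma. No member was lower without overlap, against 16.5% of all genes, and 0.0% of all genes were called in either direction, where an unadjusted p under 0.05 with a fold change over 1.5 picked 29 higher genes and 100 lower ones. The interval for Ucp1, -5.55 to 1.62, reached far to both sides of 0. Without Fat1-Sham2 the value for Ucp1 turned to 0.63, and without Fat1-Sham1 it was -4.55. Of the 5 atrial markers, 4 were below 0 between the sham groups, with a median of -3.56 and none called, and their part was not tested.

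The interaction, which asks whether TAC acted differently in fat-1 and WT mice, was negative for all 5 members, as for 77.4% of all genes, and called for none. It was -1.74 (SE 0.73, adjusted p = 0.495) for Cidea, -1.51 (SE 0.68, adjusted p = 0.495) for Otop1 and -3.57 (SE 2.15, adjusted p = 0.495) for Ucp1 by limma, and the median of all genes was -0.37. The size depended on single libraries. Ucp1 was at -6.16 without Fat1-Sham2 and -0.98 without Fat1-Sham1, Cidea at -2.46 without WT-TAC1 and -1.01 without WT-TAC2. Otop1 was at -0.79 without Fat1-Sham1 and -2.82 with limma-voom. Of all genes, 0.0692% were called in either direction. All 6 airway markers were below 0, with a median of -5.65 and 1 called lower, as were all 5 atrial markers, with a median of -2.40. All 8 cardiomyocyte markers were above 0, with a median of 0.60. The part of these markers was not tested.

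Among 18 further brown fat genes, all measured, 13 passed the filter of at least 1 FPKM in at least 2 libraries. Of the 18, 6 (Slc27a2, Aspg, Kng2, S100b, Slc36a2 and Mpzl2) were lowest in the same 3 libraries as Ucp1 and the other 12 were not. The share of all genes with this order was not counted, so the count is a description without a background. Slc27a2, a very long chain acyl-CoA synthetase, stood at 0.633 and 1.56 FPKM in WT-Sham, 2.40 and 4.49 in WT-TAC, 1.63 and 0 in Fat1-Sham, and 0 and 0.190 in Fat1-TAC, the order of Otop1. Aspg, an asparaginase, stood at 2.77, 6.504, 4.39, 12.5 and 6.51 FPKM in the 5 libraries with 12.04 FPKM or more of Ucp1 and at 1.14, 0.284 and 0.585 in Fat1-Sham2, Fat1-TAC1 and Fat1-TAC2. Kng2, a kininogen that did not pass the filter, reached 2.08 FPKM in WT-TAC2, but WT-Sham1 and Fat1-TAC2 held 1 fragment each, under the floor of 3, and were not separated. Ebf2 and Prdm16, transcription factors of brown fat identity, differed little, with 2.08 to 4.23 FPKM and 3.54 to 5.55 FPKM. Zic1 and Lhx8, often used to mark brown fat of the back, stayed at or below 0.114 and 0.284 FPKM in every library.

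For Fat1-TAC against WT-TAC, 1 of these 13 (Mpzl2, a cell adhesion protein, -1.34, adjusted p = 0.0997 by limma) was called lower, against 1.39% of all genes, and 12 of 13 had a value below 0, against 78.0%, with a median of -1.18 against -0.40 over all genes. Mpzl2 reached 1 FPKM only in the WT-TAC libraries and passed the filter only through them, which favoured a lower value and this call. In WT-TAC against WT-Sham none of the 13 was called, and their median was 0.78 against 0.39. Ppara, the most abundant of them and a regulator of fatty acid oxidation also active in heart muscle, stood at 18.6 to 37.7 FPKM with no division of the libraries. Nrg4, a growth factor secreted by brown fat, stood at 9.89 and 15.3 FPKM in WT-TAC and at 2.08 to 5.58 in the other libraries.

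A further list held 14 genes shared by brown fat and heart. They include Cox7a1 and Cox8b, subunits of cytochrome c oxidase, and Ppargc1a, the coactivator of mitochondrial biogenesis. Their sum ran from 4866 FPKM in WT-TAC1 to 11284 in Fat1-TAC1, with Fabp3 the most abundant. In Fat1-TAC against WT-TAC all 14 lay above 0 with a median of 0.48, against 22.0% of all genes above 0 and a median of -0.40, and none was called. All 8 cardiomyocyte markers also lay above 0, with a median of 0.69 and none called, and both lists were lowest in WT-TAC1. The part of heart muscle mRNA in the values of these 14 was not tested. Cox7a1 stood at 901 and 1584 FPKM in WT-TAC and at 2025 and 1829 in Fat1-TAC, where Ucp1 was at 0 and 0.943.

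Adipoq and Lep did not divide the libraries as Ucp1 did, while 4 other fat genes were lowest in the same 3 libraries. Adipoq, the hormone adiponectin made by all fat cells, stood at 28.1 and 35.1 FPKM in WT-Sham, 100 and 120 in WT-TAC, 42.5 and 9.04 in Fat1-Sham, and 0.818 and 40.7 in Fat1-TAC. Lep, leptin, stood at 0.269 and 0.999 FPKM in WT-Sham, 10.2 and 9.41 in WT-TAC, 0.886 and 0.0834 in Fat1-Sham, and 0.0291 and 4.13 in Fat1-TAC. Fat1-TAC2 was thus close to Fat1-Sham1 in Adipoq and richer in Lep than either WT-Sham library, yet its Ucp1 was 0.943 FPKM. Fat1-TAC1 held both under 1 FPKM. In contrast, 4 fat genes, named after their values were seen, were lowest in the same 3 libraries as Ucp1, out of 20 general and white fat genes, and the other 16 were not. Here too the share of all genes with this order was not counted. Pck1, the gluconeogenic enzyme that fat cells use to make glycerol, stood at 26.0 to 102 FPKM in the 5 libraries rich in Ucp1 and at 7.14, 0.204 and 13.9 in Fat1-Sham2, Fat1-TAC1 and Fat1-TAC2. Over the same libraries Gpd1, glycerol-3-phosphate dehydrogenase, stood at 51.7 to 281 FPKM and at 36.7, 30.7 and 47.1, and Pparg, the regulator of fat cell formation, at 11.1 to 27.3 and at 9.81, 9.62 and 9.67. For Gpd1 and Pparg this is an order only, with a narrow gap. WT-Sham1 held 51.7 FPKM of Gpd1 against 47.1 in Fat1-TAC2, and 11.1 of Pparg against 9.81 in Fat1-Sham2. Npr3, the clearance receptor of natriuretic peptides, from the white fat list, stood at 7.88 to 12.5 FPKM and at 4.79, 5.28 and 5.09.

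Set against Adipoq within a library, Ucp1 stood at 0.428 and 1.25 FPKM per FPKM of Adipoq in WT-Sham, 0.392 and 0.850 in WT-TAC and 0.856 in Fat1-Sham1. In Fat1-TAC2 the ratio was 0.0232, with a counting interval of 0.0153 to 0.0338, below the lowest of these 5 libraries by more than counting error. In Fat1-Sham2 it was 0.00346 from 1 fragment of Ucp1, with an upper bound of 0.0195. In Fat1-TAC1, with 14 fragments of Adipoq, no more than an upper bound of 0.169 could be given. Not every brown fat gene was low per Adipoq in Fat1-TAC2. Otop1 was at 0.00424 there against 0.0236 and 0.0376 in WT-TAC, but Dio2 was at 0.0130, with an interval that overlapped the 0.0150 of WT-TAC1. White fat genes also varied per Adipoq. Lep ran from 0.00922 in Fat1-Sham2 to 0.102 in WT-TAC1, and Slc7a10, an amino acid transporter, from 0.0216 in WT-Sham1 to 0.0959 in Fat1-TAC2. The resistin gene Retn lay between 0.174 and 0.432, highest in Fat1-Sham2 and Fat1-TAC2, and its value in Fat1-TAC1 rested on 3 fragments. Cidea per Adipoq was 0.996 and 1.08 in WT-Sham, 0.415 and 0.963 in WT-TAC, 1.07 and 2.22 in Fat1-Sham, and 23.7 and 0.446 in Fat1-TAC, since Cidea was kept where Adipoq was low. The ratios depend on the fat gene used, and with Fabp4, also a gene of endothelium, in place of Adipoq the mean log2 ratio of Ucp1 was -3.21 in place of -0.45 in WT-Sham and -2.29 in place of -0.79 in WT-TAC.

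**Figure D3:**
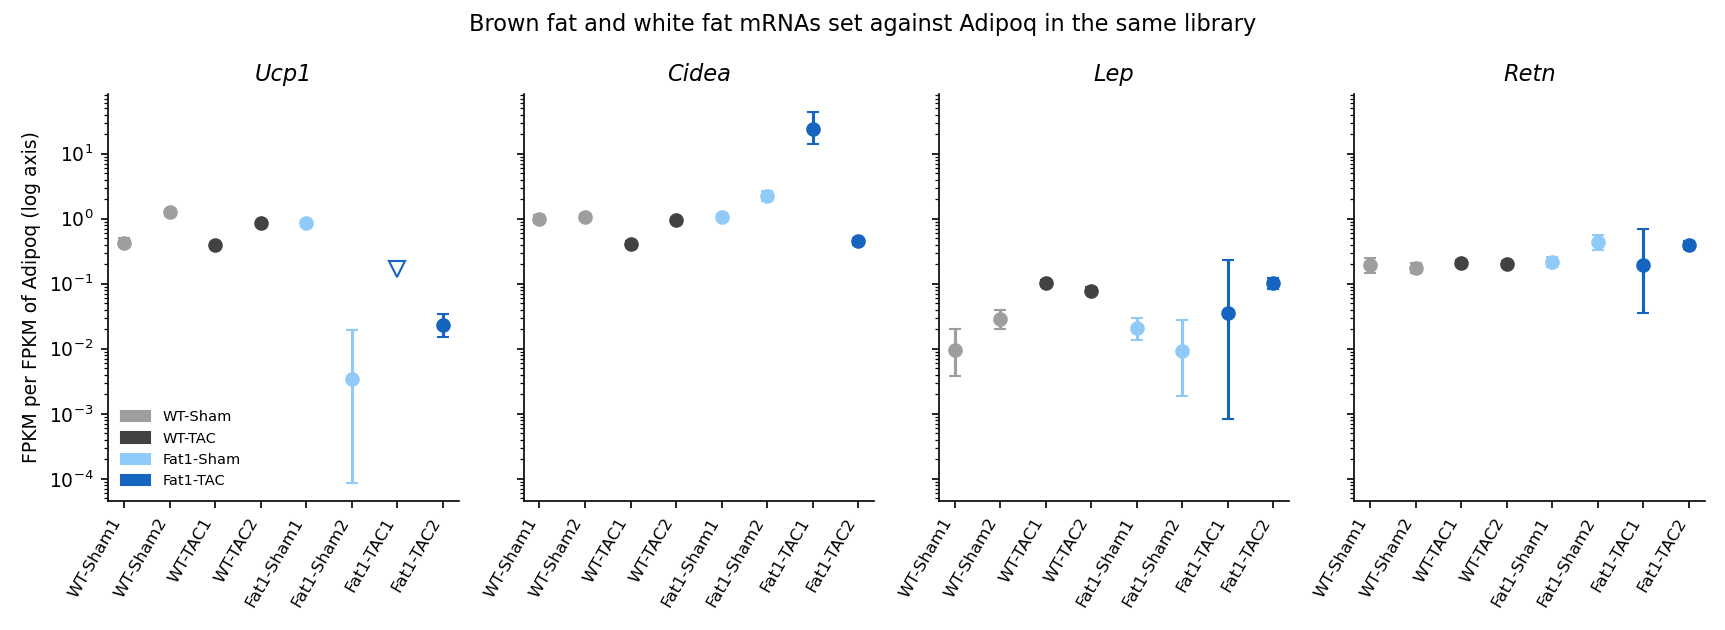
FPKM of Ucp1, Cidea, Lep and Retn per FPKM of Adipoq in the same library (log y axis) for the 8 libraries (x axis), with 95% exact counting intervals, and an open triangle at the upper bound where no fragment was found. Ucp1 per Adipoq is 0.0232 in Fat1-TAC2 against 0.392 to 1.25 in the WT libraries. Lep per Adipoq runs from 0.00922 to 0.102, and Retn per Adipoq from 0.174 to 0.432.

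The 12 general fat genes all passed the filter. In Fat1-TAC against WT-TAC all 12 had values below 0 with a median of -2.16, in WT-TAC against WT-Sham all 12 lay above 0 with a median of 1.44, and none was called in either. Of all genes, 78.0% lay below 0 in the first (median -0.40, 1.39% called lower). In the second, 79.3% lay above 0 (median 0.39, 0.921% called higher). Of 8 white fat genes, 7 passed, and their medians were -1.65 and 1.81 with none called. Among these, Lep passed only through WT-TAC, which favoured values of these signs for it. The medians of the 5 brown fat genes were -1.83 and 0.90 in the same comparisons. These comparisons share the WT-TAC libraries.

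Across the 8 libraries, correlations of log2(FPKM + 1) with Adipoq and Lep were computed for each member, which made 10 relations. Ucp1 and Otop1 fall into separate ranges of present and nearly absent libraries, so no pooled coefficient is given for them and the relation was not tested within a range, which held at most 5 libraries. Elovl3 was kept, because WT-Sham1 lay at the floor of 3 fragments and left no clear gap. All 10 coefficients of each kind were positive, and Pearson's r of Ucp1 and Otop1 with Adipoq exceeded those printed here. Those relations alone had an adjusted p under 0.05 for Pearson's r by exact permutation, pooled over the separate ranges. Adipoq was lowest in Fat1-TAC1 and Fat1-Sham2, both low in Ucp1. Cidea and Adipoq had a Pearson r of 0.69 (exact permutation p = 0.0655, adjusted p = 0.143, n = 8) and a Spearman rho of 0.74 (exact permutation p = 0.0458, adjusted p = 0.0573). Dio2 and Adipoq had a Pearson r of 0.69 (exact permutation p = 0.0489, adjusted p = 0.143) and a Spearman rho of 0.86 (exact permutation p = 0.0107, adjusted p = 0.0444). Without Fat1-TAC1 and Fat1-Sham2, r was 0.72 for Cidea and 0.61 for Dio2. With Lep, r was 0.61 for Cidea (exact permutation p = 0.105, adjusted p = 0.143) and 0.64 for Dio2 (exact permutation p = 0.0875, adjusted p = 0.143), and rho was 0.50 (exact permutation p = 0.216, adjusted p = 0.216) and 0.83 (exact permutation p = 0.0154, adjusted p = 0.0444). Without the WT-TAC libraries r was -0.03 for Cidea and 0.22 for Dio2, so the linear relation with Lep rests on WT-TAC, while rho was 0.09 for Cidea and still 0.83 for Dio2. Elovl3, with 3 libraries at 0, had an r of 0.59 with Adipoq (exact permutation p = 0.114, adjusted p = 0.143) and 0.37 with Lep (exact permutation p = 0.361, adjusted p = 0.361), with rho of 0.76 (exact permutation p = 0.0414, adjusted p = 0.0573) and 0.54 (exact permutation p = 0.178, adjusted p = 0.198). Its r was 0.38 with Adipoq without Fat1-TAC1 and Fat1-Sham2, and 0.11 with Lep without the WT-TAC libraries. The labels name no sequencing batch within which they could be repeated.

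Relatives of the members were measured in the same libraries. Ucp2, a carrier found in many tissues and in immune cells, stood at 60.3 and 129 FPKM in WT-Sham, 263 and 91.4 in WT-TAC, 61.0 and 42.8 in Fat1-Sham, and 48.0 and 39.4 in Fat1-TAC. Its highest value lay in WT-TAC1, the library with 1105 FPKM of thymocyte markers, whose part in it was not tested. Ucp3, the form of muscle and heart, stood at 10.1 and 37.8 FPKM in WT-Sham, 7.15 and 14.1 in WT-TAC, 20.1 and 16.3 in Fat1-Sham, and 36.3 and 19.4 in Fat1-TAC, so the WT-Sham pair spanned all 4 fat-1 values. Of the 5 relatives of Ucp1, none was called in any comparison.

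Cidec, the relative of Cidea found in all fat cells, ran from 0.794 FPKM in Fat1-TAC1 to 121 in WT-TAC2 and followed Adipoq, with 33.3 FPKM in Fat1-TAC2. Cideb stayed between 0.192 and 0.681 FPKM. Among the elongases, Elovl6 stood at 5.29 to 25.6 FPKM in the 5 libraries rich in Ucp1 and at 0.724, 0.557 and 3.40 in Fat1-Sham2, Fat1-TAC1 and Fat1-TAC2, and Elovl5 at 24.5 to 66.0 FPKM overall. Dio1 stood at 3.57 FPKM in WT-TAC1 and at no more than 0.0773 in the others, and Dio3 at no more than 0.190.

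Genes of the inputs to brown fat were counted as lists. Of 9 genes of the adrenergic pathway, all passed the filter and none was called in any comparison, with medians of -1.15 in Fat1-TAC against WT-TAC and 1.03 in WT-TAC against WT-Sham. Over all genes the medians were -0.40 and 0.39, with 1.39% called lower in the first and 0.921% called higher in the second. Adrb3, the beta receptor of fat cells, stood at 4.51 and 5.27 FPKM in WT-Sham, 18.9 and 23.4 in WT-TAC, 8.54 and 1.19 in Fat1-Sham, and 0.113 and 5.03 in Fat1-TAC, closer to Adipoq than to Ucp1. Of 7 genes of thyroid hormone action, 5 passed and none was called, with medians of -0.33 and 0.21, no further from 0 than those of all genes. The 5 sympathetic nerve markers summed to 2.84 and 5.01 FPKM in WT-Sham, 4.28 and 4.34 in WT-TAC, 2.75 and 1.36 in Fat1-Sham, and 1.19 and 1.61 in Fat1-TAC. Of 7 markers of beige fat, the brown-like cells of white depots, 6 were measured and 4 passed, none was called, and their medians were -0.96 and 0.66. Tbx1 and Cited1 passed only through WT-TAC, which favoured medians of these signs, whereas Shox2 and Ear2 passed without it. Ear2, the most abundant of them and also a gene of myeloid cells, was highest in WT-TAC1 at 9.33 FPKM.

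Several summed lists were lowest in the same 3 libraries as the 5 members, narrowly so for the further brown fat list (85.0 FPKM in Fat1-TAC2 against 87.5 in WT-Sham1). Besides the atrial, sympathetic and further brown fat lists, they were the fibroblast markers, at 468, 480 and 495 FPKM in Fat1-Sham2, Fat1-TAC1 and Fat1-TAC2 and at 508 or more elsewhere, and the 6 relatives of Elovl3, at 44.0, 39.3 and 43.2 FPKM and at 56.7 or more elsewhere.

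**Figure D4:**
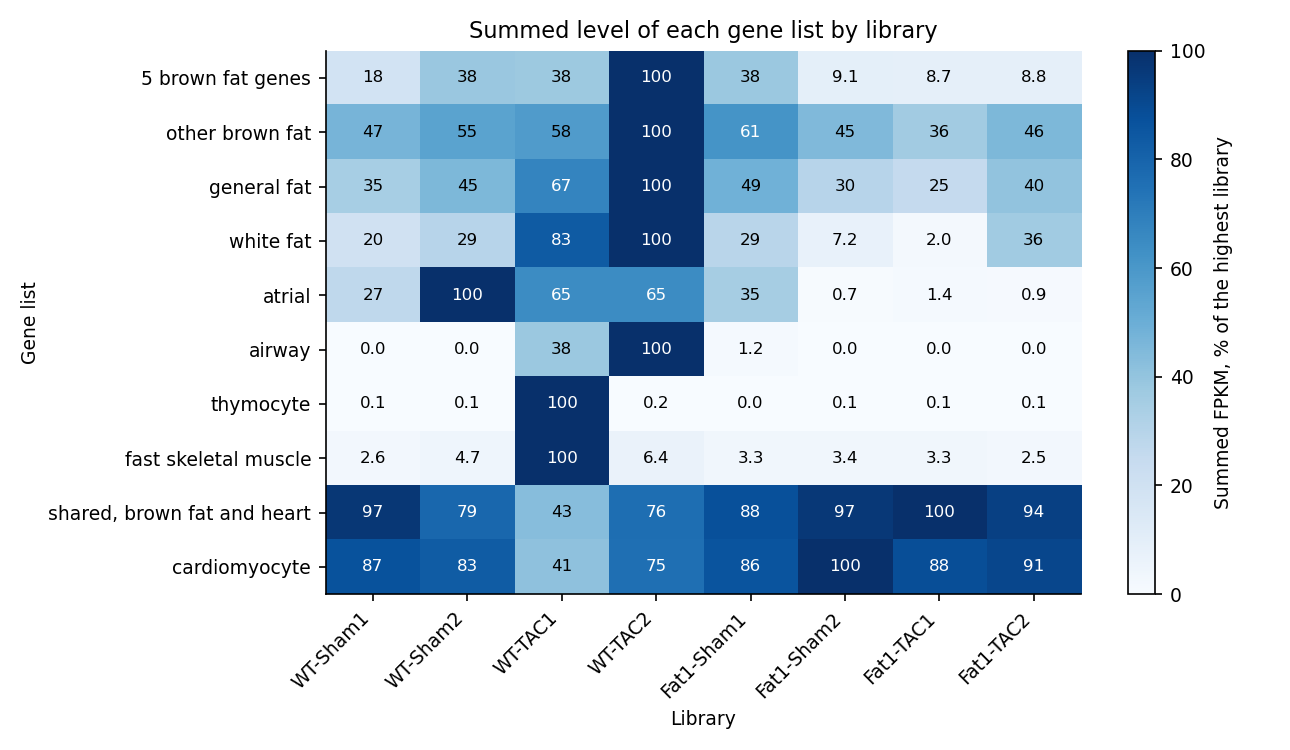
Summed FPKM of each gene list (rows) in each library (columns), as a percentage of the library in which that list is highest, from white (0) to dark blue (100). The 5 brown fat genes, the other brown fat genes and the atrial markers are lowest in the same 3 libraries. For the other brown fat genes this is narrow, at 45.7% in Fat1-TAC2 against 47.1% in WT-Sham1. White fat markers reach 36.5% in Fat1-TAC2, and airway markers are found almost entirely in WT-TAC.

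The genes whose values were most like those of Ucp1 were sought among 12458 protein-coding genes that passed the filter, by Pearson r of log2(FPKM + 1) over the 8 libraries. They were Dkk3 (r = 0.983), a secreted protein of the Dickkopf family, Clstn3 (r = 0.982), a calsyntenin, Radil (r = 0.978), an effector of the small GTPase Rap, Cacna1h (r = 0.976), a T-type calcium channel, and Tmem163 (r = 0.973), a zinc transporter. Clstn3 stood at 2.22 and 5.84 FPKM in WT-Sham, 7.67 and 14.0 in WT-TAC, 4.90 and 0.103 in Fat1-Sham, and 0.359 and 0.480 in Fat1-TAC. Dkk3 and Tmem163 differed from Ucp1 in being highest in WT-Sham2, at 76.4 and 16.4 FPKM, which is also where the atrial Myl7 was highest, at 1945 FPKM. Most like the mean of the 5 members were Radil (r = 0.996), Clstn3 (r = 0.989), Arhgap31 (r = 0.989), Slc27a2 (r = 0.982) and Aspg (r = 0.979). These genes were picked for their likeness, so the coefficients are a description over 8 libraries, over which Ucp1 falls into the same separate ranges.

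**Figure D5:**
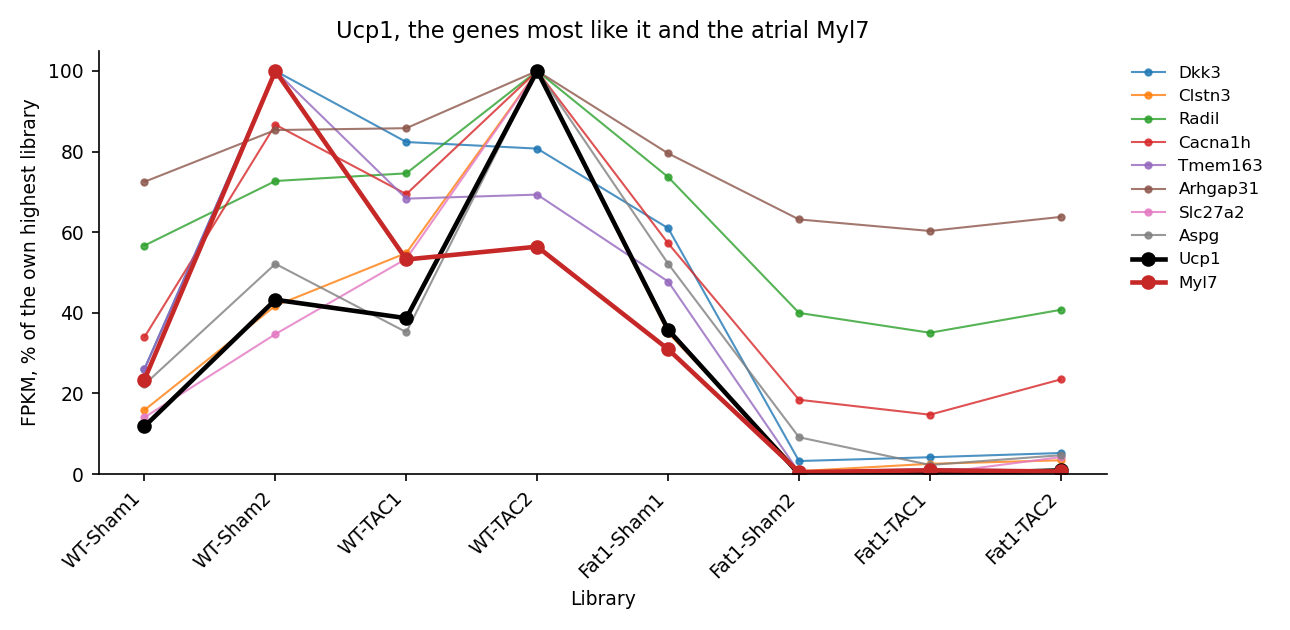
FPKM of Ucp1, of the genes most like it or like the mean of the 5 members, and of the atrial Myl7, each as a percentage of its own highest library (y axis), in the 8 libraries (x axis), where lines only join the values of 1 gene. Ucp1 peaks in WT-TAC2 and Myl7 in WT-Sham2, and both lie under 2% in Fat1-Sham2, Fat1-TAC1 and Fat1-TAC2.

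Myl7 stood at 456 and 1945 FPKM in WT-Sham, 1035 and 1097 in WT-TAC, 602 and 9.62 in Fat1-Sham, and 18.3 and 12.7 in Fat1-TAC, so it was low in exactly the libraries in which Ucp1 was nearly absent. Among the 5 libraries rich in Ucp1 the order differed: Ucp1 was highest in WT-TAC2, where Myl7 was the second highest, and Bmp10, a growth factor of the atrium, was at 0.0735 FPKM in WT-Sham2 and at 70.5 in Fat1-Sham1. Whether atrial tissue and brown fat entered the samples together was not tested.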

How the data were processed

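The authors aligned reads to mm10 (GRCm38) with HISAT2, per the labels' processing notes, and deposited 1 table of FPKM values for 25929 genes in 8 libraries, of which 25852 had symbols in GENCODE. FPKM values gave whole fragments at 1 length per gene for 100.0% of genes (tolerance 0.02 fragments), which gave the depths. Groups came from the labels, which call the samples independent. Genes with at least 1 FPKM in at least 2 libraries (14442) were tested on log2(FPKM + 1) with limma 3.58.1 in R 4.3.3 (all 4 groups, trended variance). Genes were called past a fold change of 1.5 where the p, adjusted by Benjamini-Hochberg, lay under 0.1. Poisson and exact intervals used scipy 1.17.1. The test was checked on simulated data. Alternatives changed the scaling, pseudocount, filter, samples and replicate block, or used limma-voom on recovered fragments. The genes named are the 5 members, the listed genes and the 5 genes most like each pattern. Members and lists were chosen with earlier results of these data known. Named list genes were picked after their values were seen.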

Additional observations from a re-analysis of the deposited data

How the results depend on the processing

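The number of genes called in WT-TAC against WT-Sham was 135, and it was 23 with median of ratios scaling, 11 with quantile normalisation, 33 with a pseudocount of 0.1, 293 with no filter, 9 with a mean of 5 FPKM required, 52 with the replicate block and 7 with voom, and 0 to 7408 on leaving out 1 library. In Fat1-TAC against WT-TAC it was 206, and 20, 13, 33, 350, 15, 52 and 109 under the same settings, 41 with only those groups, and 6 to 7837 on leaving out 1 library, the highest without WT-TAC2. In Fat1-TAC against Fat1-Sham it was 1, with 0 under no filter, a mean of 5 FPKM, only those groups and voom, and 0 to 7 on leaving out 1 library. The interaction gave 10, with 70 under no filter, 0 under the other scalings, the pseudocount of 0.1, the mean of 5 FPKM, the block and voom, and 0 to 6679 on leaving out 1 library. Same-numbered libraries did not deviate together (r of -0.135 to 0.0236), so they share only a number, and the replicate block changed no member's call. With the Fat1-Sham numbers crossed, chosen after seeing the data, the counts were 53 (WT-TAC against WT-Sham), 0 (Fat1-TAC against Fat1-Sham) and 206 (Fat1-TAC against WT-TAC), and Otop1 in Fat1-TAC against WT-TAC was at -1.99 (limma adjusted p = 0.0982).

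Of 405 alternative member values, 382 kept direction and side of the threshold, 7 newly passed it and 16 reversed. In WT-TAC against WT-Sham, Dio2 was -0.10 with quantile normalisation and -0.14 to 0.97 on leaving out 1 library, and Elovl3 -0.15 to 0.93 (-0.06 without WT-Sham1). In Fat1-TAC against Fat1-Sham, leaving out 1 library gave Ucp1 -4.75 to 0.43, Elovl3 -1.49 to 0.0 and Otop1 -1.33 to 0.11. In Fat1-Sham against WT-Sham it gave Ucp1 -4.55 to 0.63, Cidea -0.67 to 0.47 (0.11 without WT-Sham2), Elovl3 -0.64 to 0.85 (-0.35 without WT-Sham1), Dio2 -1.04 to 0.071 and Otop1 -1.20 to 0.24, and Elovl3 was -0.32 with the pseudocount of 0.1 and -1.55 with voom. In Fat1-TAC against WT-TAC it gave Ucp1 -6.20 to -4.86, Cidea -2.56 to -1.11, Otop1 -2.34 to -1.64 and Elovl3 -1.57 to -0.49. Of 30 group means of log2 ratios to Adipoq recomputed with Plin1 or Fabp4, 14 moved by less than 1 SD and 16 by more. The causes were not tested. Elovl3, Dio2 and Otop1 had no value under the mean of 5 FPKM. Low counts limit Elovl3 and Otop1.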
